A study of Homo sapiens with 9 samples.

Results

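The genes described here are 34 mesenchymal, adhesion, contractile and signalling genes known as held down by EWS-FLI1 in Ewing sarcoma. They were taken by symbol from a table of 23368 gene symbols, and all 34 were found in it. The table holds RNA sequencing counts from A673, an established Ewing sarcoma cell line, in an experiment that lowered LRWD1 by siRNA. The protein of that gene (ORCA) associates with the origin recognition complex and helps it load at replication origins. A control group of 3 libraries received a scrambled siRNA, 3 libraries received siLRWD1-5 and 3 received siLRWD1-6, which are separate siRNAs against LRWD1. In all 3 groups the siRNA was given at 13 nM with siLentFect, RNA was taken after 48 h, and the medium held Tet-approved serum, Zeocin and blasticidin. The libraries of a group come from 3 independent experiments with this single line, so p-values measure the spread between these cultures and not between tumours. EWS-FLI1 itself was not targeted, so whether it represses these genes in these cells was not tested.

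EWS-FLI1 joins part of EWSR1 to the DNA-binding part of the ETS factor FLI1. It activates many genes from GGAA repeats, and with co-repressor complexes it keeps a mesenchymal programme low. That programme includes receptors of TGF-beta, targets of the co-activators YAP and TAZ with their TEAD partners, matrix proteins and the contractile cytoskeleton. When the fusion is lost in Ewing sarcoma lines, these genes are known to rise and the cells to spread and adhere more.

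Library totals lay between 11971179 and 15674452 counts, and the 34 genes held 2.91 to 4.13% of them. LRWD1 had a mean of 51.0 TMM-scaled CPM (a count divided by its library size after TMM adjustment) in scrambled, 10.8 with siLRWD1-5 and 7.74 with siLRWD1-6. FLI1, part of whose exons the fusion transcript carries, was at 66.7, 77.1 and 69.4 CPM in scrambled replicates 1, 2 and 3, 47.5, 52.9 and 48.3 with siLRWD1-5 and 75.9, 87.8 and 85.3 with siLRWD1-6. It was lower with siLRWD1-5 (log2 fold change -0.52 ± 0.08 SE, edgeR adjusted p = 5e-04) and not called with siLRWD1-6 (0.22 ± 0.08, adjusted p = 0.082), though it was called higher there without scrambled replicate 2 (0.30, adjusted p = 0.0044). Scrambled replicate 2 stood apart: its chi-square per gene against the other scrambled libraries was 29.62 and 25.1, whereas the other replicate pairs had 3.05 to 5.69. The summed level of 10 dividing cell markers ran from 1330 to 2480 CPM in scrambled, 1760 to 1970 with siLRWD1-5 and 2080 to 2170 with siLRWD1-6. Ewing sarcoma markers summed to 532 to 577, 347 to 396 and 461 to 484 CPM in the same order. CD99, the classic surface marker, had 0 counts in 8 of the 9 libraries. The annotation and counting mode behind the counts are not given, so a count of 0 may not mean that the RNA was absent. Fibroblast markers summed to 1890 to 3580, 3470 to 4090 and 3430 to 4610 CPM, while DCN and LUM had group means under 1 CPM. The sum does not stand for each marker. No fibroblast marker was called with siLRWD1-5 (median log2 fold change -0.19), or 1 higher and 1 lower without scrambled replicate 2. With siLRWD1-6, COL1A1 and COL1A2 were higher and PDGFRA lower. CD3E, KRT14, MYOD1 and MYOG had 0 counts in every library. In bulk RNA, more cells expressing a gene and more RNA per cell cannot be told apart. The part of these markers in the differences between groups was not tested, and results that rest on scrambled replicate 2 are also given without it.

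A test was possible for 32 of the 34 genes. MYL9, a myosin light chain of contractile cells, had 0 counts in all 9 libraries, where 3 counts would be 0.189 to 0.254 CPM depending on the library. S100A6, a small calcium-binding protein, had 0 to 6 counts a library. Whether the RNA of these genes was absent or was not counted was not tested. Per kilobase of exon, the scrambled levels of the rest spanned 3 orders of magnitude. VIM led with 2413 CPM per kb, followed by FN1 with 1511, ACTA2 with 597, SPARC with 578 and TNC with 399. At the other end, SPRY1 had 0.824 CPM per kb, RUNX2 0.814 and DKK1 0.647.

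**Figure D1:**
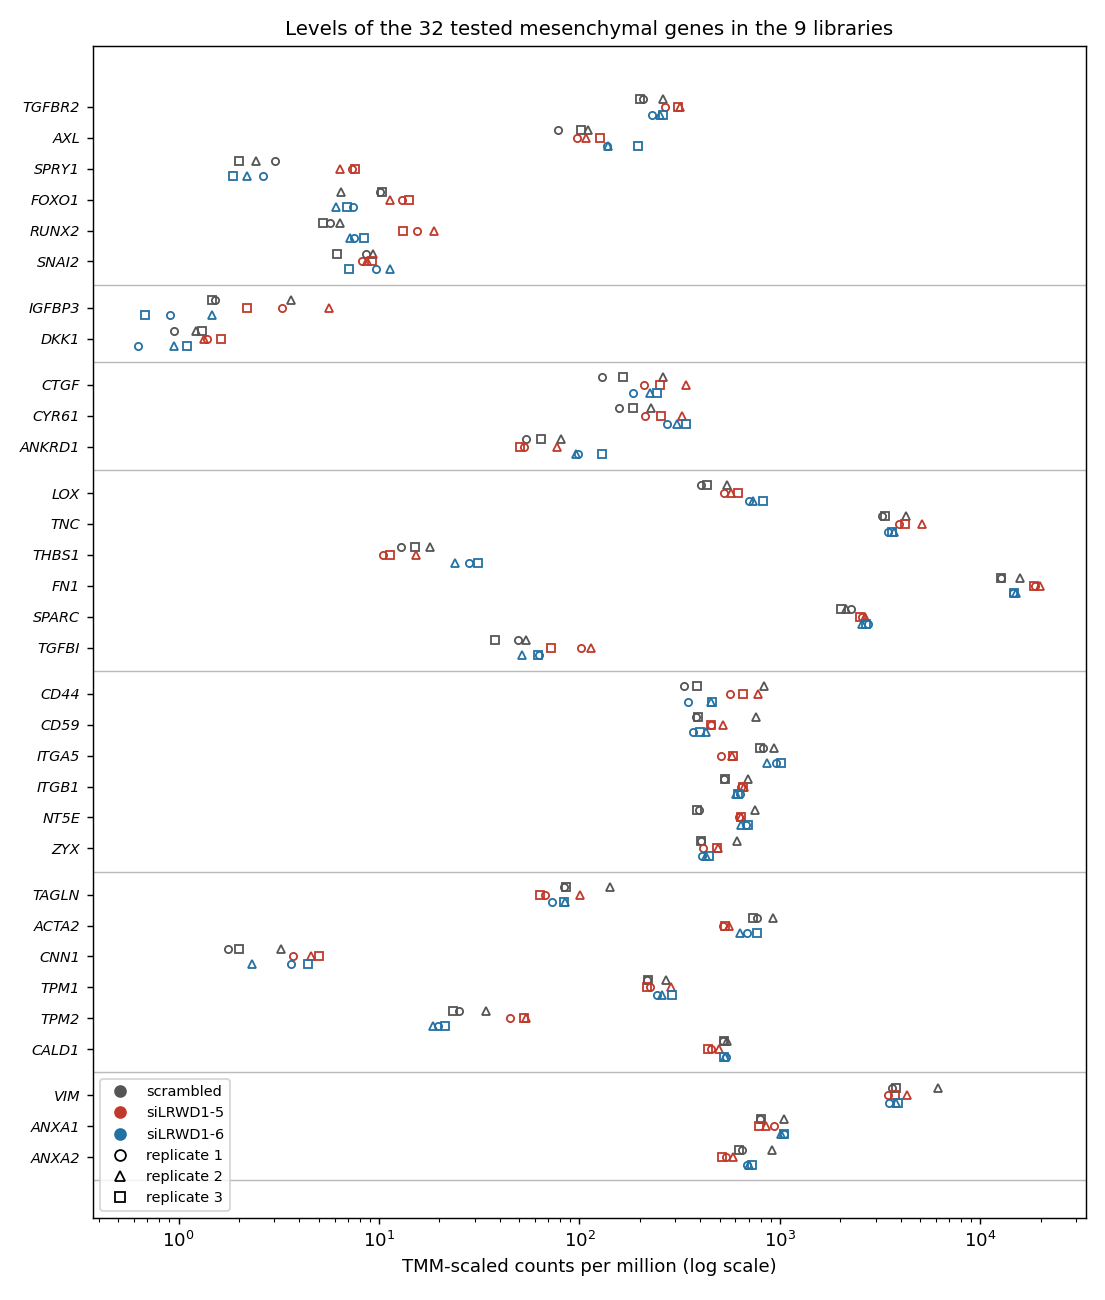
TMM-scaled CPM (log axis) of the 32 tested mesenchymal genes in each of the 9 libraries, grouped by role. Grey symbols are scrambled, red siLRWD1-5 and blue siLRWD1-6, with circles, triangles and squares for replicates 1, 2 and 3. FN1 sits farthest right at 12710 CPM or more in every library, IGFBP3 and DKK1 farthest left, and scrambled replicate 2 (grey triangles) lies to the right of its group for most genes.

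With siLRWD1-5, 10 of the 32 tested genes were higher and 4 lower than with the scrambled siRNA at an adjusted p under 0.05. These are 31.2 and 12.5% of the tested members, beside 18.5% higher and 20.3% lower among all 13648 genes tested. The members were chosen with earlier results of these data known, so the shares are no test of the list. The median log2 fold change was 0.28, against -0.01 over all genes. The higher genes were RUNX2, SPRY1, TPM2, FN1, TGFBI, SPARC, TGFBR2, CNN1, FOXO1 and LOX, and the lower ones ITGA5, ACTA2, CALD1 and ANXA2. With siLRWD1-6, 6 of the 32 were higher and 1 lower, or 18.8 and 3.12%, where 8.81% of all genes were higher and 7.78% lower. Here the median was 0.12, against -0.02 over all genes, and the higher genes were LOX, SPARC, THBS1, AXL, CYR61 and ANKRD1. LOX and SPARC were called higher with both siRNAs, and TPM2 was higher with siLRWD1-5 and lower with siLRWD1-6. Both comparisons use the same scrambled libraries. With the replicate number as a block, siLRWD1-5 gave 14 genes higher and 5 lower: IGFBP3, CTGF, CYR61 and TNC were added above and TAGLN below. That fit also called more of all genes, 2887 higher and 3038 lower, against 2527 and 2765 without the block. The sample descriptions give the replicate number as a series number in every group. They do not say whether a series is the same experiment across groups. Deviations of same-numbered libraries were positively correlated, so the fit without the block may leave out a real pairing.

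**Figure D2:**
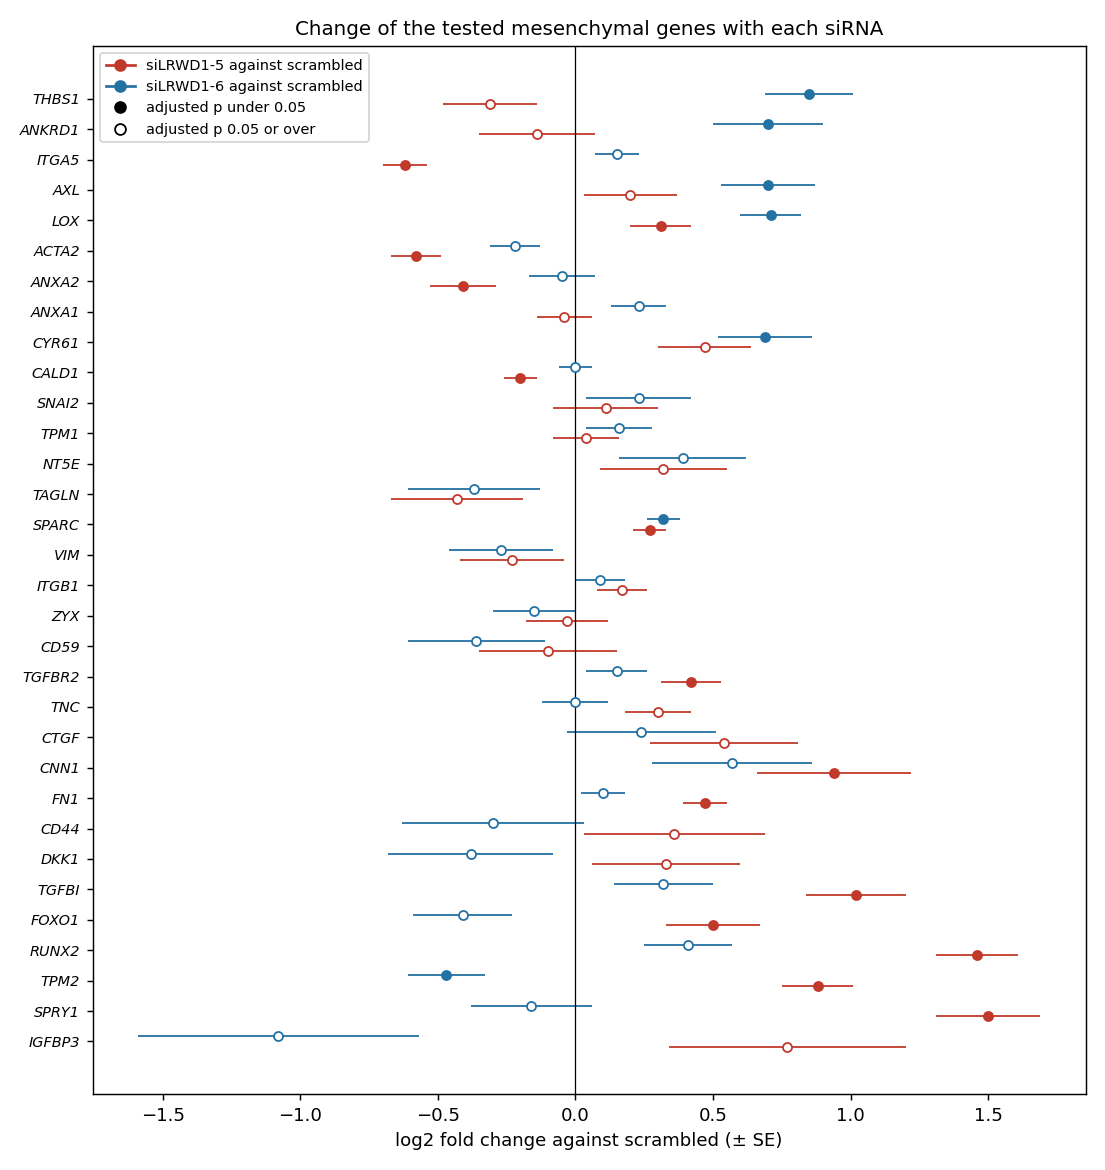
Log2 fold change against scrambled (horizontal axis, bars ± SE, 3 libraries a group) of the 32 tested genes with siLRWD1-5 (red) and siLRWD1-6 (blue), ordered from the highest to the lowest difference between the siRNAs. Filled points had an edgeR adjusted p under 0.05: THBS1, at 0.85 with siLRWD1-6 and -0.31 with siLRWD1-5, is at the top, and IGFBP3, RUNX2, TPM2 and SPRY1 are among the lowest rows, where red lies to the right of blue.

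Among the 6 signalling and transcription genes, 4 rose with siLRWD1-5 and 1 with siLRWD1-6, beside 18.5% and 8.81% of all genes. Each role holds few genes, chosen with earlier results known, so counts by role are no test. RUNX2, the transcription factor that commits cells to the osteoblast lineage, had 5.69, 6.40 and 5.25 CPM in scrambled replicates 1, 2 and 3, 15.4, 18.9 and 13.2 with siLRWD1-5 and 7.53, 7.16 and 8.38 with siLRWD1-6. Every siLRWD1-5 library lay above all others, and the siLRWD1-6 libraries lay between those and scrambled without overlap. RUNX2 rose 2.74-fold with siLRWD1-5 (log2 1.46 ± 0.15, edgeR adjusted p = 2.7e-05) and was not called with siLRWD1-6 (0.41 ± 0.16, adjusted p = 0.11). SPRY1, a Sprouty protein that damps growth factor receptor signalling to MAPK, had 3.03, 2.43 and 2.01 CPM in scrambled, 7.31, 6.37 and 7.63 with siLRWD1-5 and 2.65, 2.19 and 1.86 with siLRWD1-6. The siLRWD1-5 libraries were the highest, and those of the other groups overlapped. Its log2 fold change was 1.5 ± 0.19 with siLRWD1-5 (edgeR adjusted p = 0.00013) and -0.16 ± 0.22 with siLRWD1-6 (adjusted p = 0.68). RUNX2 and SPRY1 differed by -1.04 ± 0.15 and -1.66 ± 0.20 between siLRWD1-6 and siLRWD1-5 (edgeR adjusted p = 0.00019 and 5.4e-05). SPRY1 counts were low, 22 to 116 a library.

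TGFBR2, the ligand-binding type II receptor of TGF-beta and a long-known repressed target of the fusion, had 207, 262 and 200.1 CPM in scrambled, 268, 318 and 310.1 with siLRWD1-5 and 229, 252 and 260.1 with siLRWD1-6. The siLRWD1-5 libraries were above both other groups, although replicate 1 exceeded the highest scrambled library only narrowly. TGFBR2 rose by 0.42 ± 0.11 on the log2 scale with siLRWD1-5 (edgeR adjusted p = 0.0091), against 0.15 ± 0.11 with siLRWD1-6 (adjusted p = 0.39). The difference between the siRNAs was -0.28 ± 0.11 (edgeR adjusted p = 0.055), and -0.27 with an adjusted p of 0.012 with the replicate number as a block. FOXO1, a forkhead factor that restrains growth, had 10.2, 6.48 and 10.3 CPM in scrambled, 13.0, 11.4 and 14.1 with siLRWD1-5 and 7.39, 6.14 and 6.94 with siLRWD1-6. Replicate 2 was the lowest scrambled library for FOXO1, opposite to most of the list, and fell within the siLRWD1-6 range. FOXO1 was higher with siLRWD1-5 (0.50 ± 0.17, edgeR adjusted p = 0.035), a call that ended without scrambled replicate 2 (0.32, adjusted p = 0.051), without siLRWD1-5 replicate 1 (0.091) and without siLRWD1-5 replicate 3 (0.12). Leaving out that scrambled library, FOXO1 was instead lower with siLRWD1-6 (-0.58, edgeR adjusted p = 0.0045). Between the siRNAs it was -0.91 ± 0.18 (edgeR adjusted p = 0.0015).

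AXL, the receptor tyrosine kinase that binds GAS6, moved with the other siRNA. It had 78.5, 110.0 and 102 CPM in scrambled, 97.5, 108 and 127 with siLRWD1-5 and 137, 138 and 197 with siLRWD1-6. The siLRWD1-6 libraries lay above the rest, with replicate 3 far above its partners. AXL rose 1.63-fold with siLRWD1-6 (log2 0.70 ± 0.17, edgeR adjusted p = 0.025), a call that ended without scrambled replicate 1 (adjusted p = 0.065) or 3 (0.053), and was not called with siLRWD1-5 (0.20 ± 0.17, adjusted p = 0.41). SNAI2, the repressor Slug of the epithelial to mesenchymal transition, stayed at 6.17 to 11.4 CPM over all libraries with overlapping groups (edgeR adjusted p = 0.67 and 0.46).

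The secreted inhibitors and binding proteins, IGFBP3 and DKK1, had 8 to 76 counts a library. IGFBP3, which binds insulin-like growth factors and is a direct target of the fusion, had 1.52, 3.65 and 1.47 CPM in scrambled, 3.28, 5.63 and 2.19 with siLRWD1-5 and 0.906, 1.46 and 0.677 with siLRWD1-6. Replicate 2 was the highest library in each of the 3 groups. The scrambled mean was 2.21 ± 1.24 CPM (SD, n = 3). Neither siRNA was called against scrambled (0.77 ± 0.43, edgeR adjusted p = 0.18, and -1.08 ± 0.51, adjusted p = 0.19), but the siRNAs differed by -1.85 ± 0.48 (adjusted p = 0.01) with no overlap. With the replicate number as a block, IGFBP3 was higher with siLRWD1-5 (0.77, edgeR adjusted p = 0.011), and without scrambled replicate 2 it was also higher (1.31, adjusted p = 0.0064). DKK1, a secreted antagonist of Wnt signalling, had 9 to 22 counts a library and was called in no comparison (log2 0.33 ± 0.27 and -0.38 ± 0.30).

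The YAP/TEAD targets among the members are CTGF and CYR61, matricellular proteins that bind integrins, and ANKRD1, an ankyrin repeat protein. TEAD factors bind the word GGAATG, and the promoter sequences below are shown because 2 of these targets carry it repeatedly. They are the 250 bases before the RefSeq start in GRCh38.p14, with GGAATG in capitals, for CTGF (RefSeq CCN2, minus strand, chr6:131951373-131951622) and ANKRD1 (minus strand, chr10:90921088-90921337).
CTGF: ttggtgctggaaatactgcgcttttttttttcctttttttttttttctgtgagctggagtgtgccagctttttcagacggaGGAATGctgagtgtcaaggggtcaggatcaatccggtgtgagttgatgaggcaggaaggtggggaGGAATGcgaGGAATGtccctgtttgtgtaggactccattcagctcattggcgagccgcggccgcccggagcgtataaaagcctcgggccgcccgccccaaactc
ANKRD1: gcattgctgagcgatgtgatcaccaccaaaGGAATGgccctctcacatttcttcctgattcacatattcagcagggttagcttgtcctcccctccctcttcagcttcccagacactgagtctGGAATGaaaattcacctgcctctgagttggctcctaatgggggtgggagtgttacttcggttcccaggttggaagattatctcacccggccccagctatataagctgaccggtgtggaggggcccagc
CTGF holds the word 3 times, at 169, 104 and 95 bases before the start, and ANKRD1 2 times, at 220 and 128 bases before it. In all 35116 RefSeq promoter windows of 300 bases (250 before to 50 after the start, both strands searched), 14% hold GGAATG, 1.37% hold it at least 2 times and 0.13% at least 3 times. Of the list, 30 genes had a window, 45 windows in all, and 12 windows (26.7%) of 11 genes held the word. Of these genes, AXL, ANKRD1, THBS1, ITGA5, ACTA2 and CALD1 were higher with siLRWD1-6 than with siLRWD1-5, as were 22.4% of all genes tested. RUNX2 was lower (-1.04), and DKK1, CTGF, SPARC and ITGB1 were not called in that comparison. LOX and ANXA2, also higher with siLRWD1-6 than with siLRWD1-5, held no match. AXL, RUNX2, ITGB1, ACTA2 and CALD1 each had further windows without the word. CYR61, SNAI2, TAGLN and MYL9 were not in the table. A match is a run of letters, and TEAD binding was not measured here.

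CTGF had 129, 259.7 and 164 CPM in scrambled replicates 1, 2 and 3, 209.8, 340.1 and 253 with siLRWD1-5 and 185, 225 and 243 with siLRWD1-6. Replicate 2 was the highest library of the scrambled and siLRWD1-5 groups, and all 3 groups overlapped. CTGF was not called with either siRNA (0.54 ± 0.27, edgeR adjusted p = 0.16, and 0.24 ± 0.27, adjusted p = 0.61). Blocked by replicate number, it was higher with siLRWD1-5 (0.56, edgeR adjusted p = 0.014), and so it was without scrambled replicate 2 (0.87, adjusted p = 0.037). CYR61 had 158, 227 and 185 CPM in scrambled, 212, 324 and 254 with siLRWD1-5 and 274, 308 and 340.5 with siLRWD1-6. All siLRWD1-6 libraries lay above scrambled, whereas siLRWD1-5 replicate 1 was below scrambled replicate 2. CYR61 rose with siLRWD1-6 (0.69 ± 0.17, edgeR adjusted p = 0.026), was at 0.47 ± 0.17 with siLRWD1-5 (adjusted p = 0.057), and passed there with the replicate block (0.47, adjusted p = 0.0022).

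ANKRD1, with the 2 GGAATG words shown above, had 53.8, 81.0 and 64.2 CPM in scrambled, 53.0, 77.0 and 50.7 with siLRWD1-5 and 97.8, 95.9 and 129.9 with siLRWD1-6. Its siLRWD1-6 libraries lay above every library of the other groups, which overlapped. ANKRD1 rose 1.63-fold with siLRWD1-6 (log2 0.70 ± 0.20, edgeR adjusted p = 0.046) and was at -0.14 ± 0.21 with siLRWD1-5 (adjusted p = 0.64). The siRNAs differed by 0.84 ± 0.20 (edgeR adjusted p = 0.0094). The calls of CYR61 and ANKRD1 with siLRWD1-6 both ended when scrambled replicate 1 was left out (edgeR adjusted p = 0.07 and 0.12), when scrambled replicate 3 was (0.073 and 0.11), and when siLRWD1-6 replicate 2 (0.072 for both) or 3 (0.077 and 0.13) was. That of ANKRD1 also ended without siLRWD1-6 replicate 1 (adjusted p = 0.081).

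TEAD1, the TEAD factor that is no member itself, had 93.4, 113 and 103 CPM in scrambled, 57.1, 53.2 and 57.3 with siLRWD1-5 and 162, 166 and 163 with siLRWD1-6. The 3 groups did not overlap. It fell with siLRWD1-5 (-0.88 ± 0.07, edgeR adjusted p = 5.2e-06) and rose with siLRWD1-6 (0.67 ± 0.07, adjusted p = 0.00012). THBS1 and ANKRD1 were, like TEAD1, higher with siLRWD1-6 than with siLRWD1-5, while CTGF and CYR61 did not differ between the siRNAs past the threshold (edgeR adjusted p = 0.41 and 0.33). Whether TEAD1 bears on these levels was not tested.

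**Figure D3:**
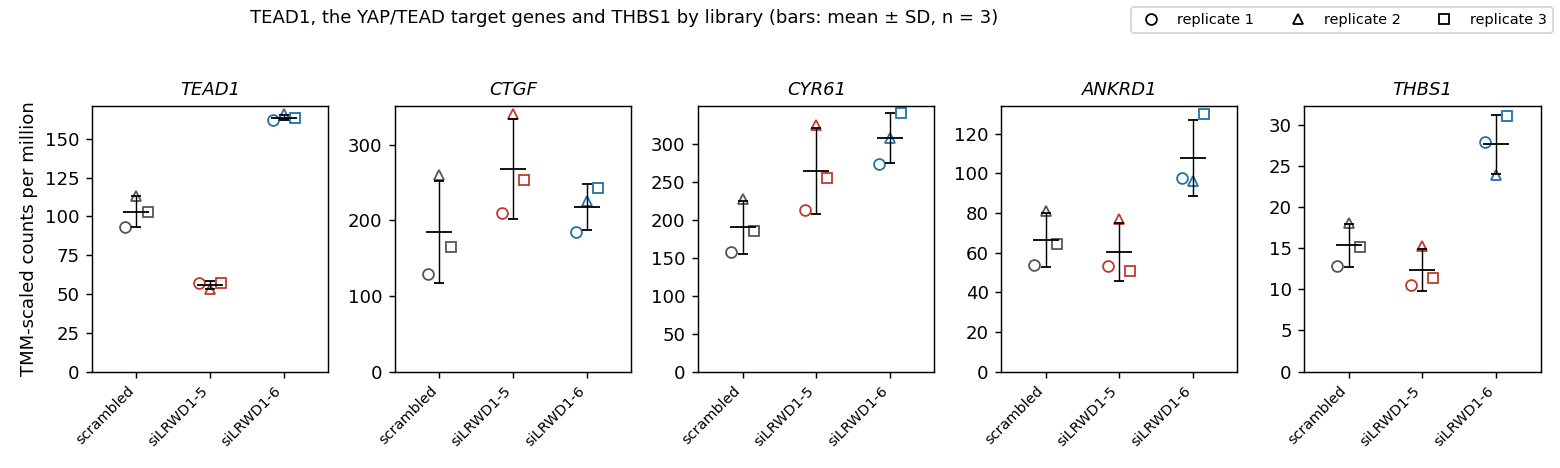
TMM-scaled CPM (linear axes from 0) of TEAD1, CTGF, CYR61, ANKRD1 and THBS1 in each library, with the mean ± SD of 3 libraries a group. TEAD1 separates into 3 levels, with means of 103, 55.9 and 164 CPM in scrambled, siLRWD1-5 and siLRWD1-6, ANKRD1 and THBS1 stand out with siLRWD1-6, and CTGF overlaps in all groups.

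Of the 6 matrix genes, 4 rose with siLRWD1-5 and 3 with siLRWD1-6, and none fell. Of all genes, 18.5% rose and 20.3% fell with siLRWD1-5, and 8.81% and 7.78% with siLRWD1-6. FN1, fibronectin, took more counts than any other member, with 12710, 15790 and 12730 CPM in scrambled, 18630, 19910 and 18470 with siLRWD1-5 and 14510, 15010 and 14660 with siLRWD1-6. Every siLRWD1-5 library was above every other library. FN1 rose 1.38-fold with siLRWD1-5 (log2 0.47 ± 0.08, edgeR adjusted p = 0.001), against 0.10 ± 0.08 with siLRWD1-6 (adjusted p = 0.46). TGFBI, a TGF-beta induced matrix protein, had 49.4, 54.4 and 38.1 CPM in scrambled, 101, 115 and 72.3 with siLRWD1-5 and 62.8, 51.6 and 62.4 with siLRWD1-6. Again the siLRWD1-5 libraries were the highest, with replicate 3 well below its partners. TGFBI rose 2.03-fold with siLRWD1-5 (log2 1.02 ± 0.18, edgeR adjusted p = 0.0019) and was at 0.32 ± 0.18 with siLRWD1-6 (adjusted p = 0.28). FN1 and TGFBI were both lower with siLRWD1-6 than with siLRWD1-5 (-0.37 and -0.71, edgeR adjusted p = 0.0039 and 0.011).

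SPARC and LOX were higher with both siRNAs. SPARC, a collagen-binding matrix protein, had 2267, 2139 and 2013 CPM in scrambled, 2577, 2664 and 2494 with siLRWD1-5 and 2746, 2568 and 2681 with siLRWD1-6. All 6 siRNA libraries were above all scrambled libraries, and the siRNA groups overlapped. The changes were small, 0.27 ± 0.06 and 0.32 ± 0.06 (edgeR adjusted p = 0.0043 in both). SPARC holds the TEAD word on the opposite strand, 17 bases before its start. LOX, the enzyme that crosslinks collagen and elastin, had 406, 546 and 432 CPM in scrambled, 523, 569 and 620.5 with siLRWD1-5 and 703, 735 and 819 with siLRWD1-6. Its siLRWD1-6 libraries lay above all others, while siLRWD1-5 replicate 1 was below scrambled replicate 2. LOX rose by 0.71 ± 0.11 with siLRWD1-6 (edgeR adjusted p = 0.0019) and by 0.31 ± 0.11 with siLRWD1-5 (adjusted p = 0.049). The second call ended without scrambled replicate 1 (adjusted p = 0.15) or 3 (0.15), and without siLRWD1-5 replicate 2 (0.1) or 3 (0.17), by edgeR. LOX was higher with siLRWD1-6 than with siLRWD1-5 (0.40 ± 0.11, edgeR adjusted p = 0.014).

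THBS1, thrombospondin-1, which can activate latent TGF-beta, was called with siLRWD1-6, as ANKRD1 was. It had 12.8, 18.1 and 15.2 CPM in scrambled, 10.5, 15.3 and 11.4 with siLRWD1-5 and 28.0, 24.0 and 31.2 with siLRWD1-6. The siLRWD1-6 libraries stood clear of the rest. THBS1 rose 1.81-fold with siLRWD1-6 (log2 0.85 ± 0.16, edgeR adjusted p = 0.0047), was at -0.31 ± 0.17 with siLRWD1-5 (adjusted p = 0.18), and differed by 1.16 ± 0.16 between the siRNAs (adjusted p = 2e-04). Its promoter, shown because it changed with siLRWD1-6 and holds a TEAD word 46 bases before the start, reads as follows at chr15:39581021-39581050 (GRCh38.p14, plus strand, RefSeq), next to the ITGA5 stretch described further on (chr12:54419331-54419360, minus strand).
THBS1: gaggaatccccaGGAATGcgagcgcccctt
ITGA5: tccagggacccaGGAATGcccccccgccag
TNC, tenascin-C, ranged from 3226 to 5122 CPM. It was at 0.30 ± 0.12 with siLRWD1-5 (edgeR adjusted p = 0.066) and 0.00 ± 0.12 with siLRWD1-6 (adjusted p = 1). With the replicate block it was higher with siLRWD1-5 (0.30, edgeR adjusted p = 0.0034) and differed between the siRNAs (-0.29, adjusted p = 0.0036).

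Of the 6 adhesion and cell surface genes, ITGA5 alone was called against scrambled, and it fell with siLRWD1-5, as did 20.3% of all genes. ITGA5, the alpha subunit of the main fibronectin receptor, had 824, 933 and 799 CPM in scrambled, 507, 578 and 584 with siLRWD1-5 and 959.6, 864 and 1009 with siLRWD1-6. The siLRWD1-5 libraries were below all others, and the other groups overlapped. ITGA5 fell 1.53-fold with siLRWD1-5 (log2 -0.62 ± 0.08, edgeR adjusted p = 0.00016), was at 0.15 ± 0.08 with siLRWD1-6 (adjusted p = 0.26), and was 0.76 ± 0.08 higher with siLRWD1-6 than with siLRWD1-5 (adjusted p = 2.7e-05). Its promoter holds a TEAD word 82 bases before the start, printed above beside that of THBS1. ITGB1, the beta subunit of the same receptor, spanned 523 to 690 CPM and was not called (0.17 ± 0.09 and 0.09 ± 0.09). With siLRWD1-5 the ligand fibronectin was thus higher and a subunit of its receptor lower. When scrambled replicate 2 was left out, 5 of the 6 genes of this group were higher with siLRWD1-5 and 3 with siLRWD1-6, in a fit that called 24% and 15.3% of all genes higher. These genes were higher in that library than in its partners, so leaving it out raises their fold changes by construction. With the replicate number as a block, 0 were higher and 1 lower with siLRWD1-5, and 0 were called with siLRWD1-6.

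The surface proteins CD44, CD59 and NT5E were widely spread in scrambled. CD44, the hyaluronan receptor, had 333, 835 and 387 CPM there, CD59, which blocks the complement membrane attack complex, 382, 761 and 389, and NT5E, an ecto-nucleotidase that makes adenosine, 393, 748 and 385. In each, replicate 2 was far above its partners. With siLRWD1-5 they ranged over 564 to 780, 454 to 523 and 622 to 641 CPM, and none was called with either siRNA. Without scrambled replicate 2, NT5E was higher with siLRWD1-5 (0.70, edgeR adjusted p = 1.1e-09) and siLRWD1-6 (0.79, adjusted p = 6.7e-10), ITGB1 with both (0.31 and 0.24, adjusted p = 5.3e-05 and 0.0015) and CD44 with siLRWD1-5 (0.89, adjusted p = 0.011). CD59 turned from -0.10 to 0.30 (edgeR adjusted p = 0.0011) and ZYX, a focal adhesion and actin regulator, from -0.03 to 0.19 (adjusted p = 0.019), both with siLRWD1-5. Blocked by replicate number, none of CD44, CD59, NT5E, ITGB1 and ZYX was called against scrambled. There CD44 was lower with siLRWD1-6 than with siLRWD1-5 (-0.66, edgeR adjusted p = 0.047).

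The 6 tested contractile genes did not move together: with siLRWD1-5, 2 rose and 2 fell, beside 18.5% and 20.3% of all genes. TPM2, beta-tropomyosin, had 25.0, 34.3 and 23.4 CPM in scrambled, 45.05, 53.9 and 52.6 with siLRWD1-5 and 19.8, 18.6 and 21.4 with siLRWD1-6. The 3 groups did not overlap, with siLRWD1-5 on top and siLRWD1-6 lowest. TPM2 rose 1.83-fold with siLRWD1-5 (log2 0.88 ± 0.13, edgeR adjusted p = 0.00041) and fell with siLRWD1-6 (-0.47 ± 0.14, adjusted p = 0.042). The siRNAs differed by -1.34 ± 0.14 (edgeR adjusted p = 1.9e-05). Its fall with siLRWD1-6 was no longer called without siLRWD1-6 replicate 1, 2 or 3 (edgeR adjusted p = 0.13, 0.15 and 0.076), and was -0.23 (adjusted p = 0.13) in the libraries numbered 1 and 3 alone. CNN1, the smooth muscle calponin, had 1.77, 3.24 and 2.01 CPM in scrambled, 3.72, 4.59 and 5.03 with siLRWD1-5 and 3.62, 2.34 and 4.40 with siLRWD1-6. The siLRWD1-5 libraries lay above scrambled, from 26 to 62 counts a library in these groups. CNN1 rose by 0.94 ± 0.28 with siLRWD1-5 (edgeR adjusted p = 0.021) and was at 0.57 ± 0.29 with siLRWD1-6 (adjusted p = 0.21). The first call ended without scrambled replicate 1 (adjusted p = 0.077) or 3 (0.069) and without siLRWD1-5 replicate 2 (0.055) or 3 (0.074), by edgeR. CNN1 was also higher with siLRWD1-6 without scrambled replicate 2 (0.87, edgeR adjusted p = 0.02).

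ACTA2, smooth muscle alpha-actin, had 764, 919 and 733 CPM in scrambled, 522, 560.2 and 529 with siLRWD1-5 and 682, 632 and 765 with siLRWD1-6. The siLRWD1-5 libraries were the lowest, and the siLRWD1-6 libraries overlapped scrambled. ACTA2 was lower with siLRWD1-5 (-0.58 ± 0.09, edgeR adjusted p = 0.00048), against -0.22 ± 0.09 with siLRWD1-6 (adjusted p = 0.14). CALD1, caldesmon, had 518, 542 and 527 CPM in scrambled, 455, 494 and 437 with siLRWD1-5 and 538, 529.5 and 524 with siLRWD1-6. It was tightly grouped in scrambled and siLRWD1-6 and lower in each siLRWD1-5 library. CALD1 fell with siLRWD1-5 (-0.20 ± 0.06, edgeR adjusted p = 0.019), a call that ended without siLRWD1-5 replicate 1 (0.07) or 3 (0.078) and without scaling beyond library size (0.055). ACTA2 and CALD1 were both higher with siLRWD1-6 than with siLRWD1-5 (0.37 and 0.20, edgeR adjusted p = 0.0071 and 0.016). TPM1 spanned 216 to 288 CPM and TAGLN 63.7 to 143 CPM without a call, and TAGLN was lower with siLRWD1-5 under the replicate block (-0.42, edgeR adjusted p = 0.029). Antisense genes in GENCODE v29 cover 38.3% of the exon bases of ACTA2 and 31.8% of TPM1, PCSK7 covers 18.4% of TAGLN, and the library kit does not mark strand, so reads of these partners cannot be told apart.

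ANXA2, a calcium-dependent membrane-binding protein, had 649, 908 and 622 CPM in scrambled, 541, 581 and 517 with siLRWD1-5 and 681, 699 and 726 with siLRWD1-6. The siLRWD1-5 libraries were below the others, and siLRWD1-6 overlapped scrambled. ANXA2 fell with siLRWD1-5 (-0.41 ± 0.12, edgeR adjusted p = 0.026), a call that ended without siLRWD1-5 replicate 1 (0.072) or 3 (0.088). Its near-identical copies ANXA2P1, ANXA2P2 and ANXA2P3 had scrambled means of 42.1, 627 and 73.4 CPM and log2 fold changes of -0.36, -0.38 and -0.33 with siLRWD1-5. Reads can be split between these copies, so the level of ANXA2 is uncertain. ANXA1, a related annexin, was not called against scrambled (-0.04 ± 0.10 and 0.23 ± 0.10). With the replicate block it was higher with siLRWD1-6 than with siLRWD1-5 (0.27, edgeR adjusted p = 0.047). VIM, vimentin, the mesenchymal intermediate filament, had 3605, 6119 and 3798 CPM in scrambled and 3459 to 4322 CPM with the siRNAs, so that only scrambled replicate 2 stood out. It was not called (-0.23 ± 0.19 and -0.27 ± 0.19, edgeR adjusted p = 0.37 in both), and antisense genes cover 52.6% of its exon bases.

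The siRNAs against the same gene were also compared directly. Of the 32 tested genes, 8 were higher and 7 lower with siLRWD1-6 than with siLRWD1-5, or 25 and 21.9%, where 22.4% of all genes were higher and 20.9% lower, so the shares of the list were near the background. The median was -0.06, against -0.01 over all genes. The higher genes were ITGA5, THBS1, ACTA2, ANKRD1, LOX, CALD1, ANXA2 and AXL, and the lower ones TPM2, SPRY1, RUNX2, FOXO1, FN1, IGFBP3 and TGFBI. With the replicate number as a block the counts were 9 and 10, and over all genes 3335 and 3157, against 3063 and 2856 without it. The AXL call ended in 7 of 15 alternatives, that of ANXA2 in 8 and that of CALD1 in 4, including without siLRWD1-5 replicate 1 (edgeR adjusted p = 0.13, 0.097 and 0.058). LOX lost it without siLRWD1-5 replicate 1 (0.058), and TGFBI in the libraries numbered 1 and 3 alone (-0.48, edgeR adjusted p = 0.11). A further 13 tested genes were called in none of the 3 comparisons: SNAI2, DKK1, CTGF, TNC, CD44, CD59, ITGB1, NT5E, ZYX, TAGLN, TPM1, VIM and ANXA1.

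Scrambled replicate 2 was high for this list. Against the mean of scrambled replicates 1 and 3 on the log2(CPM + 0.5) scale, 30 of the 32 tested genes were higher in it, with a median difference of 0.38, beside 0.01 over all genes. CD44 (1.22), IGFBP3 (1.06), CD59 (0.98), NT5E (0.94) and CTGF (0.83) differed most, and FOXO1 (-0.62) was lower. All 10 dividing cell markers were lower in the same library, with a median of -0.69. Without it, siLRWD1-5 gave 17 genes higher and 4 lower, beside 24% and 25% among all genes. The calls kept were 13 of 14, the lost one was FOXO1, and CD44, CD59, CTGF, IGFBP3, ITGB1, NT5E, TNC and ZYX were gained, all higher. With siLRWD1-6, 14 were higher and 2 lower, beside 15.3% and 13.3% of all genes. All 7 calls were kept and ANXA1, CNN1, FN1, ITGA5, ITGB1, NT5E, RUNX2 and TGFBR2 were gained as higher and FOXO1 as lower. The medians became 0.32 and 0.24. Leaving out a library in which 30 of the 32 genes were higher raises their fold changes by construction. The choice of library thus added to the size of these changes. With all libraries the gained genes already had the same sign, except CD59 (-0.10) and ZYX (-0.03) with siLRWD1-5. All genes together, with a median difference of 0.01, have no such common shift, so their shares are no like comparison.

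**Figure D4:**
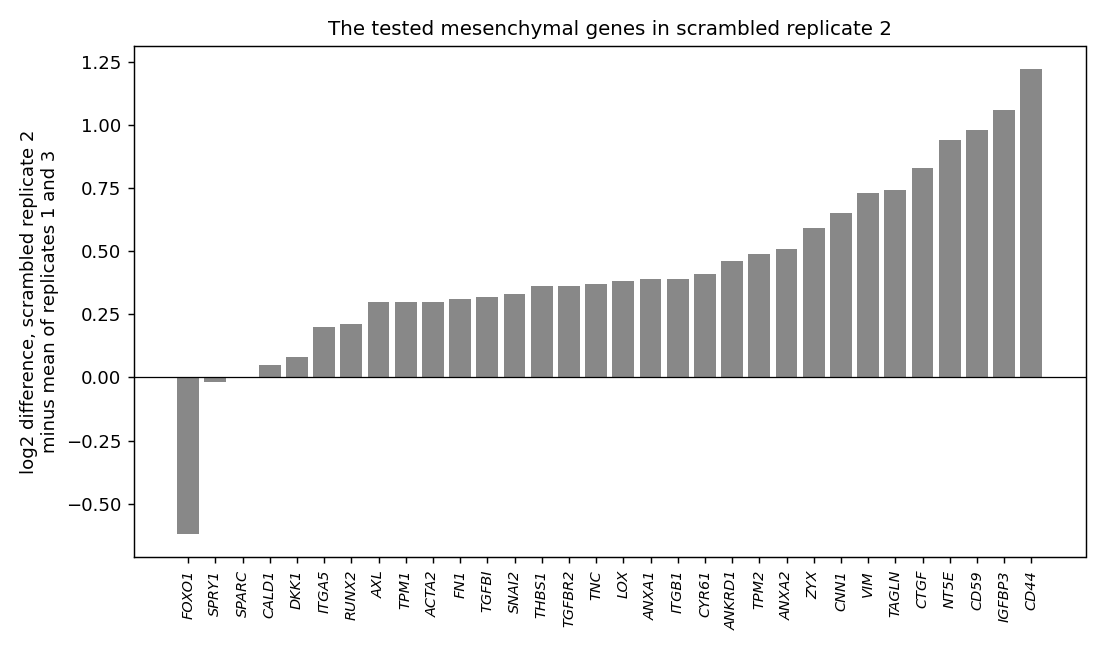
Difference of scrambled replicate 2 from the mean of scrambled replicates 1 and 3, in log2(CPM + 0.5), for each of the 32 tested genes, ordered by size, 1 bar a gene and no error since each bar is 1 library. Bars run from FOXO1 at -0.62 through SPARC at 0.00 to CD44 at 1.22, and most are above 0.

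Other genes of the same pathways were taken from lists written with earlier results of these data known. Their counts are read against all tested genes, of which 18.5% were higher and 20.3% lower with siLRWD1-5 and 8.81% and 7.78% with siLRWD1-6. Without scrambled replicate 2 these shares were 24% and 25%, and 15.3% and 13.3%. In a TGF-beta list of 34 tested genes, 8 rose and 5 fell with siLRWD1-5, 3 rose and 5 fell with siLRWD1-6, and the medians were 0 and -0.05. Of the list, 23.5% rose and 14.7% fell with siLRWD1-5, and 8.82% and 14.7% with siLRWD1-6, where the share that rose was close to the 8.81% of all genes. With siLRWD1-6, 5 rose and 6 fell without scrambled replicate 2. TGFBR1, which signals in a complex with TGFBR2, had 28.4, 24.2 and 28.2 CPM in scrambled, 53.4, 49.9 and 52.0 with siLRWD1-5 and 31.98, 26.7 and 28.9 with siLRWD1-6. Like TGFBR2, it was highest in the siLRWD1-5 libraries, without overlap (0.94 ± 0.09, edgeR adjusted p = 1.4e-05). The ligand TGFB2 rose with both siRNAs (0.99 ± 0.16 and 1.25 ± 0.16, edgeR adjusted p = 0.001 and 8e-04), as did the feedback inhibitors SKIL (0.38 and 0.33) and PMEPA1 (0.41 and 0.81). Other genes of the list fell with both: ID3 (-0.58 and -0.61), ID2 (-0.43 and -0.50) and SMAD6 (-0.26 and -0.26). For ID2 and ID3, scrambled replicate 2 was the highest library. TGFB3 (-1.02 ± 0.19, edgeR adjusted p = 0.0044) and SMAD3 (-0.27 ± 0.08, adjusted p = 0.045) fell with siLRWD1-6.

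In a list of 20 tested Hippo kinases, YAP, TAZ and TEAD genes, 2 rose and 7 fell with siLRWD1-5 and 1 rose and 2 fell with siLRWD1-6. The shares were 10% and 35%, beside 18.5% and 20.3% of all genes, and 5% and 10%, beside 8.81% and 7.78%, with medians of -0.18 and -0.07. With siLRWD1-5, YAP1 (-0.20), WWTR1, which encodes TAZ (-0.38), and TEAD3 (-0.58) fell with TEAD1, and NF2, an activator of the kinases that restrain YAP, rose (0.57). LATS2, one of those kinases and itself a YAP target, fell with siLRWD1-6 (-1.22 ± 0.11, edgeR adjusted p = 3.3e-05). Of 16 other YAP target genes, 3 rose and 2 fell with siLRWD1-5 and 6 rose and 1 fell with siLRWD1-6, the higher ones being TGFB2, F3, DOCK5, PTPN14, ASAP1 and CRIM1. These are 18.8% and 12.5% with siLRWD1-5, near or under the 18.5% and 20.3% of all genes, and 37.5% and 6.25% with siLRWD1-6, beside 8.81% and 7.78%. The medians were -0.07 and 0.25. With siLRWD1-5 the counts were 6 and 4 without scrambled replicate 2, and 5 and 3 with the replicate block. In the Hippo list, 4 in place of 2 fell with siLRWD1-6 without that library. CRIM1 had values of 302, 466 and 342 CPM in scrambled, where replicate 2 was again the highest.

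Around the adhesion members, 37 tested integrin and focal adhesion genes had 5 higher and 14 lower with siLRWD1-5 and 3 of each with siLRWD1-6. That is 13.5% and 37.8%, beside 18.5% and 20.3% of all genes, and 8.11% in each direction, near the 8.81% and 7.78% of all genes, with medians of -0.12 and -0.07. Besides ITGA5, the parvin PARVA (-1.41 ± 0.09), its partner kinase ILK (-0.82 ± 0.06) and the LIM protein CSRP1 (-1.43 ± 0.15) fell with siLRWD1-5, by edgeR with adjusted p of 7.9e-07, 2.5e-06 and 7.6e-05. VCL, vinculin, fell with both (-0.53 and -0.33), and ITGAV, the alpha-V integrin, rose with both (0.55 and 0.19). Without scrambled replicate 2, 10 of these genes were higher and 13 lower with siLRWD1-5, and 7 higher and 4 lower with siLRWD1-6. Among 22 tested actin, myosin and SRF genes, none rose with either siRNA, while 7 fell with siLRWD1-5 and 5 with siLRWD1-6. The lower shares were 31.8% and 22.7%, beside 20.3% and 7.78% of all genes, and the medians -0.14 and -0.06. TPM3, a tropomyosin, fell with siLRWD1-5 (-1.31 ± 0.09), where its paralog TPM2 rose. CNN2 (-0.81), ACTB (-0.38) and ACTG1 (-0.65) fell with siLRWD1-6. Without scrambled replicate 2, 4 genes of that list rose with siLRWD1-5 and 1 with siLRWD1-6, and with the replicate block 2 rose with siLRWD1-5.

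Among 13 tested epithelial-mesenchymal transition factors and cadherins, 1 rose and 6 fell with siLRWD1-5, and 1 rose with siLRWD1-6 (2 without scrambled replicate 2). With siLRWD1-5 these were 7.69% and 46.2%, beside 18.5% and 20.3% of all genes, with a median of -0.40, and with siLRWD1-6 7.69%, beside 8.81%, with a median of 0.03. The factors TCF3 (-1.26 ± 0.06) and ZEB1 (-0.90 ± 0.11) fell with siLRWD1-5, and CDH11, a mesenchymal cadherin, fell with siLRWD1-5 and rose with siLRWD1-6 (-0.38 and 0.33, edgeR adjusted p = 0.00022 and 0.0021). CDH2, N-cadherin, rose with siLRWD1-5 (0.43). A list of 17 tested genes held FLI1, EWSR1, co-repressors, and others such as NR0B1 and NKX2-2, also counted above as Ewing sarcoma markers. Of these 17, 8 fell with siLRWD1-5 and none rose, and none was called with siLRWD1-6. The lower share was 47.1% with siLRWD1-5, beside 20.3% of all genes, and the medians were -0.23 and -0.04. Besides FLI1, those that fell were HDAC3 (-0.66), HDAC1 (-0.35), NR0B1 (-0.83), NKX2-2 (-0.53), TLE3 (-0.37), EZH2 (-0.29) and CHD4 (-0.23). Without scrambled replicate 2, 1 rose and 10 fell with siLRWD1-5, and 2 rose and 1 fell with siLRWD1-6. Whether the fall of FLI1 and of these genes bears on the mesenchymal genes was not tested.

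Other words were searched in the 45 promoter windows of the list. TGANTCA, the AP-1 word, was in 7 windows (15.6%) and in 7.7% of all windows. GGAAGGAA, a pair of GGAA units, was in 2 windows (4.4%), against 3.7% of all, and the CArG box of SRF in none, against 1.3%. No test was made on these shares, since several windows belong to the same gene and the members were chosen for their function.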

How the data were processed

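Raw counts of reads for each gene symbol were deposited as 1 table, a column per library. The submitters' processing notes name bcl2fastq 1.8.4, TopHat2 2.0.10, HTSeq 0.5.4p3 and hg19, and no source used here gives the annotation, counting mode or strand setting. Of 23368 symbols, 13648 passed edgeR's filterByExpr. After TMM scaling, edgeR 4.0.16 under R 4.3.3 gave the tests (robust quasi-likelihood fit, group as the only term, all 9 libraries, Benjamini-Hochberg adjustment over all genes tested, called at an adjusted p under 0.05). Alternatives were RLE size factors, no scaling, no filter, a minimum of 1 CPM in 3 libraries, DESeq2 1.42.0, limma 3.58.1 with voom, the replicate number as a block, the groups compared alone, libraries numbered 1 and 3 alone, and leaving out each library.

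Deviations from the group means were correlated between same-numbered libraries over all tested genes. The values were 0.28, 0.40 and 0.13 for scrambled and siLRWD1-5 and 0.19, 0.25 and 0.11 for the siRNAs. For scrambled and siLRWD1-6 they were 0.31, 0.26 and 0.03. Over the tested members these became 0.65, 0.55 and 0.39, then 0.56, 0.30 and 0.29, then 0.74, 0.34 and 0.51. Pairs of different numbers ran from -0.36 to 0.18 over all tested genes and from -0.51 to 0.13 over the members. Most of them were negative, while every same-numbered pair was positive. The sample descriptions call each number a series in every group, without saying whether a series is the same experiment across groups. The positive correlations are what such a pairing would give, and the main fit leaves it out. The block was kept as an alternative. With siLRWD1-5, whether IGFBP3, CTGF, CYR61, TNC and TAGLN were called against scrambled thus depends on this choice. The members and lists were chosen with earlier results of these data known. Every member was named, grouped by role, with values for those called against scrambled. Library differences used log2(CPM + 0.5). Exon lengths came from GENCODE v29 and promoter windows from RefSeq (GRCh38.p14), another build than that of the counts.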

Additional observations from a re-analysis of the deposited data

How the results depend on the processing

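Of the calls against scrambled, 9 of 14 with siLRWD1-5 (TGFBR2, SPRY1, RUNX2, FN1, SPARC, TGFBI, ITGA5, ACTA2 and TPM2) and 3 of 7 with siLRWD1-6 (LOX, THBS1 and SPARC) held in all 15 alternatives, as did 10 of 15 between the siRNAs. Members higher with siLRWD1-5 numbered 7 to 17 when single libraries were left out, with 17 without scrambled replicate 2, and 16 in the libraries numbered 1 and 3 alone. The fits with 17 and 16 called 3326 and 3289 of all genes higher, against 2527 with every library. Members lower with siLRWD1-5 numbered 2 to 4, and 2 in a fit of only the groups compared. With siLRWD1-6, higher members numbered 3 to 14 with single libraries left out (3 without scrambled replicate 1 or 3, 14 without replicate 2), 3 with no filter on low counts and 14 in the libraries numbered 1 and 3. Its lower members numbered 0 to 2 with single libraries left out, 0 by limma-voom and in a fit of only the groups compared, and 2 with the replicate block. Between the siRNAs, higher members numbered 5 to 7 with single libraries left out and 5 with no scaling beyond library size, and lower members 7 to 9, and 11 in a fit of only the groups compared. CD59 turned with siLRWD1-5 to 0.30 without scrambled replicate 2 and to 0.25 in the libraries numbered 1 and 3, and ZYX to 0.19 without scrambled replicate 2; over all single libraries left out, CD59 ran from -0.27 to 0.30 and ZYX from -0.14 to 0.19. Over all genes, those higher with siLRWD1-6 numbered 702 to 2115 and those lower 546 to 1838 with single libraries left out, 1933 and 1646 in libraries 1 and 3, and 696 lower in a fit of only the groups compared. The replicate block gave 14 and 5, 6 and 2, and 9 and 10 members higher and lower. Over all genes it called 2887 and 3038, 1472 and 1343, and 3335 and 3157 in the same order. Between siLRWD1-6 and scrambled it added IGFBP3 (-1.09, edgeR adjusted p = 0.011). The causes were not tested. DKK1 (9 to 22 counts a library) and IGFBP3 (8 to 76) had few counts, and 3 libraries a group limit every value.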
